A study of Mus musculus with 5 samples.

Results

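The clustered protocadherin locus was examined in DNA methylation data of LSK cells, the lineage-negative, Sca1-positive and Kit-positive fraction of mouse bone marrow that holds blood stem and progenitor cells. The locus is the interval chr18:37080000-38005000 (mm9), taken as the span of the Pcdha, Pcdhb and Pcdhg gene arrays. Its members were all CpG positions in this interval, each strand of a CpG being a position of its own, and no measured value was used to choose them. The deposited tables listed 1466 positions of the interval in at least 1 library, out of 2328518 on the autosomes. Of these, 97 positions had at least 10 reads in all 5 libraries, out of 280635 on the autosomes. A wider set of 440 positions, out of 855600, had at least 10 reads in replicates 1 and 3 of the knock-in group and in replicate 2 of the wild-type group, the libraries with the most positions.

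The libraries came from 3 samples labelled Idh1-R132H knock-in and 2 labelled wild-type, all from bone marrow of mice on a mixed 129Ola and C57Bl/6J background. The product of Idh1 is a cytosolic isocitrate dehydrogenase. Its mutant form makes 2-hydroxyglutarate, which can inhibit the TET enzymes that oxidise methylated cytosine. The labels give neither the ages of the mice nor the cells in which the allele was active, and they do not say whether a library stands for 1 animal. The p-values therefore measure how far these libraries lie apart, a spread that may be technical. With no expression data, the cell type rests on the labels alone. Methylation was read by enhanced reduced representation bisulfite sequencing, in which DNA is cut at CCGG by MspI, so that only CpGs near such sites are seen.

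Clustered protocadherins are cell-surface adhesion proteins best known from neurons. In the Pcdha and Pcdhg arrays, each variable first exon has its own promoter and is spliced to constant exons shared by the array, whereas Pcdhb genes are made of a single exon. Individual neurons use only some of these promoters, promoter methylation goes with silence of a variable exon, and the C-type exons at the ends of Pcdha and Pcdhg are used more constantly. RefSeq lists 14 Pcdha, 22 Pcdhb and 22 Pcdhg genes on GRCm38, 1 of the Pcdhg genes being a pseudogene. In the gene order of that table, Slc25a2, a mitochondrial ornithine carrier gene, and Taf7, which encodes a subunit of the general transcription factor TFIID, lie between the last Pcdhb and the first Pcdhg gene. The gene table is of another build than the files, so no tile below is tied to a gene.

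Depth decided how much of the interval could be seen. Knock-in replicates 1, 2 and 3 listed 706, 354 and 1236 of the 1466 positions, and wild-type replicates 1 and 2 listed 183 and 605. At the 97 shared positions, median coverage reached 50, 26 and 112 reads in the knock-in libraries, against 19 and 36 reads in the wild-type libraries. Knock-in replicate 3 thus gave the fullest map, and wild-type replicate 1 set the limit for all comparisons of 5 libraries. Positions were spread over 234 tiles of 1 kb, of which 99 had 3 to 9 listed positions, 42 had 10 to 29 and 5 had 30 or more. Only 11 tiles held at least 3 of the 97 shared positions.

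Partly methylated CpGs made up a larger share of the interval than of the rest of the autosomes, in both genotypes. The comparison and its bounds of 20 and 80% were chosen after the data were seen. Over the 97 shared positions, 23.7, 19.6 and 37.1% of CpGs were methylated at 20 to 80% in knock-in replicates 1, 2 and 3, and 25.8 and 27.8% in wild-type replicates 1 and 2. Over the 280538 other shared autosomal CpGs the shares were 5.27, 5.20 and 4.68% in the knock-in, against 6.26 and 5.10% in the wild-type libraries. Every library had a larger share in the interval, by 21.5 ± 6.80 points (SD, n = 5 libraries). By an exact 2-sided sign-flip permutation test over libraries, p was 0.0625, the smallest that 5 libraries allow, and 0.0781 after Benjamini-Hochberg adjustment over 5 comparisons of this kind. All libraries measure the same positions, so this and the later sign-flip tests concern only how far libraries share a sign. They cannot test the interval against other regions of the genome. With each position thinned to 10 reads, the shares in the interval were 23.7, 20.6 and 33.0% in knock-in, against 21.6 and 27.8% in wild-type libraries. Elsewhere they were 4.90 to 5.93%.

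In the wider set of 440 positions the share at 20 to 80% came to 32.7 and 42.7% in knock-in replicates 1 and 3 and 39.8% in wild-type replicate 2. The other 855160 autosomal CpGs of this set had 6.93 and 6.46% in the knock-in libraries, against 6.69% in the wild-type library. The excess averaged 31.7 points and was present in each of the 3 libraries, a number that allows no exact p under 0.25. At a minimum of 20 reads the 239 remaining positions had 34.3 and 43.5% in the knock-in libraries, against 40.2% in the wild-type library. Elsewhere the shares were 5.16 to 5.93%. In the set shared by all 5 libraries, the same minimum left 31 positions of the interval. Of these, 28 lay in the unmethylated tiles at 37803000 and 37965000 described below, and the rest in the tile at 37886000. The excess over these 31 positions was 3.49 points (exact sign-flip p = 0.125). In knock-in replicate 2 the share was then lower in the interval than elsewhere, 3.23% against 5.14%.

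**Figure D1:**
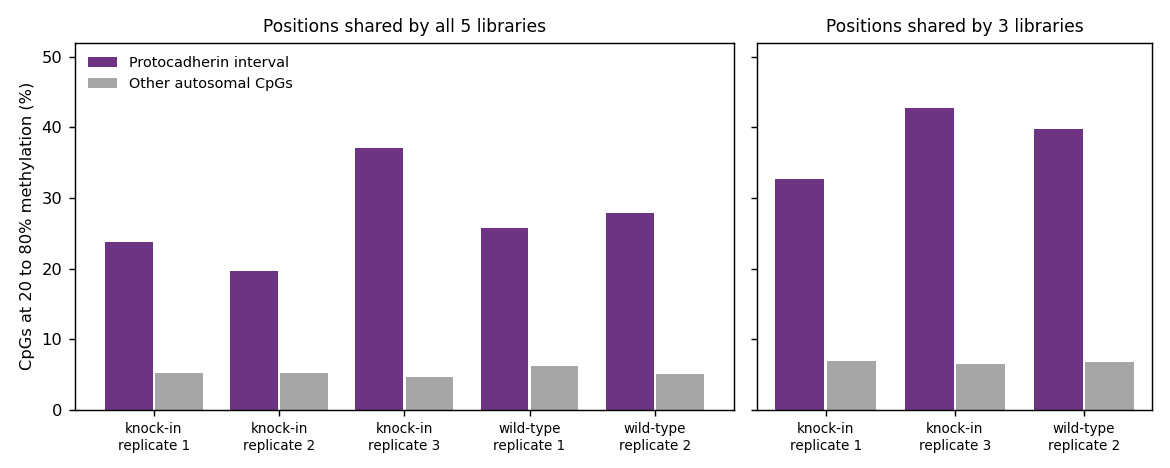
Percent of CpG positions with a methylation level of 20 to 80% in the protocadherin interval (purple) and over all other autosomal positions (grey), by library, for the 97 and 280538 positions shared by all 5 libraries (left) and the 440 and 855160 positions shared by 3 libraries (right). In each library the purple bar, at 19.6 to 42.7%, stands above the grey bar, at 4.68 to 6.93%.

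The share was lower on both sides of the interval. The 925 kb before it held 759 positions of the wider set, with 3.43 and 2.64% at 20 to 80% in knock-in replicates 1 and 3 and 2.77% in wild-type replicate 2. The 925 kb after it held 764 positions, with 11.3 and 11.5% in the knock-in libraries, against 10.9% in the wild-type library. The autosomes were also divided into consecutive windows of the same length, of which 1370 held at least 200 positions. Averaged over the 3 libraries, the interval had 38.4% of CpGs at 20 to 80%, 2 windows had more, and the median window had 5.61%. This order is a description of these libraries, and windows differ in their number of positions.

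Intermediate levels covered the whole range between the extremes in the fullest map. In knock-in replicate 3, whose own 1236 positions of the interval had a median coverage of 26 reads, 110 positions lay at 20 to 40%, 149 at 40 to 60% and 147 at 60 to 80%. These are 8.90, 12.1 and 11.9% of the positions, against 2.21, 2.66 and 4.01% of the other autosomal positions of this library. At the low end, 28.3% of positions of the interval were under 10%, against 48.2% elsewhere, and at the high end 28.2% were at 90% or more, against 37.2% elsewhere. In bins of 10 points between 20 and 80%, each bin held 4.45 to 6.15% of the positions of the interval and 1.09 to 2.27% of the others.

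**Figure D2:**
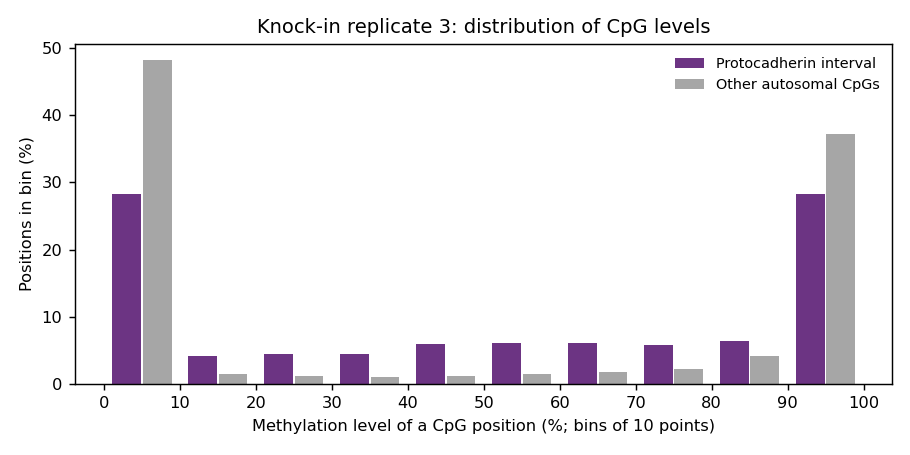
Percent of CpG positions in bins of 10 points of methylation level in knock-in replicate 3, for 1236 positions of the protocadherin interval (purple) and all other autosomal positions of the library (grey). Each purple bar between 10 and 90% is taller than the grey one, and both end bins are shorter, with 28.3 and 28.2% against 48.2 and 37.2%.

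Shares were also compared within classes of CpG density, counted as positions listed in any library per tile. Among tiles of 10 to 29 positions with at least 3 CpGs in the wider set, 22 and 23 of 33 tiles of the interval lay at 20 to 80% in knock-in replicates 1 and 3 and 21 of 33 in wild-type replicate 2. These are 66.7, 69.7 and 63.6%, against 12.7, 13.3 and 13.98% of 20032 other autosomal tiles of the class. Among tiles of 3 to 9 positions, the shares were 75.0 and 81.3% in the knock-in libraries, against 56.3% in the wild-type library, over 16 tiles. Of 29330 others, 15.5 to 16.1% did so. The mean level of the 33 tiles of 10 to 29 positions was 53.1 and 47.8% in the knock-in libraries, against 46.5% in the wild-type library. Over the other tiles of the class it was 51.5 and 50.1% in the knock-in libraries, against 49.7% in the wild-type library, with 41.6% of those tiles averaging under 20% and 45.2% at 80% or more.

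With all 5 libraries the density classes held few tiles. The 2 tiles of 3 to 9 positions lay 46.8 ± 10.5 points (SD, n = 5 libraries) below the 5440 others of their class, in each library, with an exact sign-flip p of 0.0625. Other tiles enter when a library is left out, and the value was then -22.3 points without knock-in replicate 2 and -25.2 points without wild-type replicate 1, and it was -18.3 points in the wider set. The 8 tiles of 10 to 29 positions lay 1.39 ± 6.70 points above the 7640 others, a distance smaller than its spread (exact sign-flip p = 0.75). The sign of this value turned to -12.6 points when levels were weighted by reads and to -31.6 points at 20 reads per CpG. At 20 reads, 3 tiles of the interval were left in all classes. Of these, only the tile at 37965000, at 0% in each library, was in this class.

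Most measured tiles along the interval were partly methylated. Of the 54 tiles with at least 3 CpGs in the wider set, 9 averaged under 20%, 38 lay at 20 to 80% and 7 at 80% or more, whereas 38.2, 11.6 and 50.2% of the 62668 other autosomal tiles fell in these classes. The interval was also divided into windows of 100 kb from its start. In window 1, at the start of the interval, 5 of 6 tiles were intermediate, with a median of 68.6%. Windows 2 and 3 held 4 measured tiles, and window 5 none. Window 8 held 12 tiles, 9 of them intermediate, and window 9 held 22 tiles, 16 of them intermediate. Tiles of window 9 ranged from 0 to 72.9% with a median of 46.98%.

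**Figure D3:**
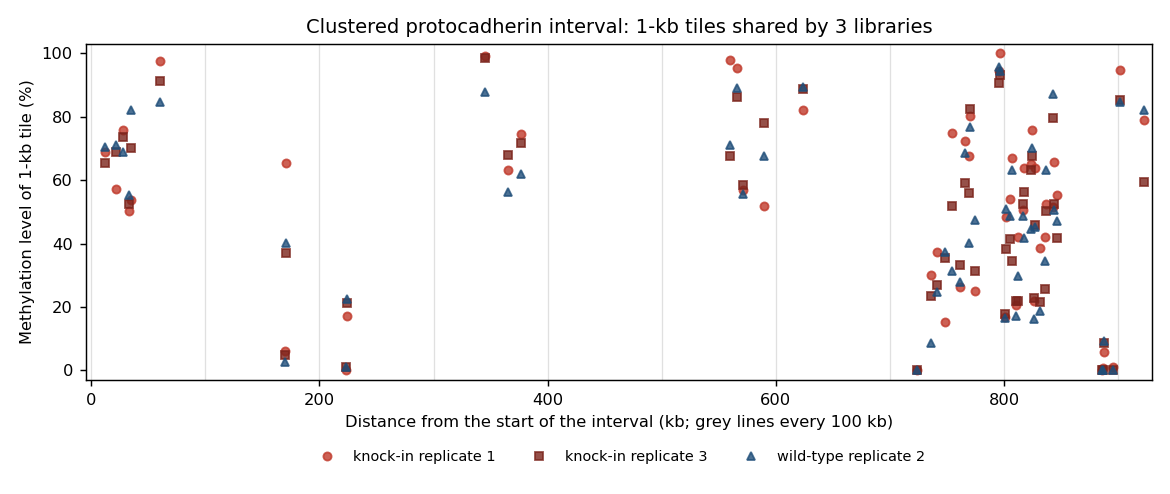
Methylation level of 54 tiles of 1 kb (each with at least 3 CpGs shared by the 3 libraries) against their distance from the start of the protocadherin interval, in knock-in replicates 1 (circles) and 3 (squares) and wild-type replicate 2 (triangles). Most tiles lie between 20 and 80% in each library, 9 tiles average under 20%, and 12 and 22 tiles lie in the 8th and 9th stretches of 100 kb.

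The tiles richest in CpGs were unmethylated or partly methylated, and none of the 5 was methylated throughout. The densest, at chr18:37303000-37303999 with 51 listed positions, was at 0 and 1.26% in knock-in replicates 1 and 3 and at 1.23% in wild-type replicate 2. The tile directly after it, with 30 listed positions, was at 17.1 and 21.2% in the knock-in libraries, against 22.7% in the wild-type library. The tile at chr18:37966000-37966999, with 45 listed positions, was at 0.923 and 0% in the knock-in libraries, against 0.222% in the wild-type library. The tile at chr18:37926000-37926999, with 30 listed positions, was at 55.2 and 41.9% in the knock-in libraries, against 47.0% in the wild-type library. At this density only 1.97% of 13306 other autosomal tiles averaged 20 to 80%, whereas 2 of these 5 did, the tiles at 37304000 and 37926000. The count depends on the bound, since the tile at 37304000 averaged 20.4% over 6 CpGs. It was at 19.3% over the 24 CpGs measured in knock-in replicate 3. In knock-in replicate 1 of the wider set, 1 of the 5 tiles lay at 20 to 80%.

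The remaining CpG-dense tile was at chr18:37803000-37803999, with 39 listed positions, of which 24 were shared by all 5 libraries. It stood at 0, 0 and 0.395% in knock-in replicates 1, 2 and 3, over 1206, 713 and 3038 reads. In wild-type replicates 1 and 2 it was 0 and 0.355%, over 758 and 844 reads. A count of 0 among 713 reads allows a level of up to 0.421%, and among 758 reads of up to 0.396%. The groups overlapped. Levels at 27 mitochondrial CpGs, a gauge of unconverted cytosine, were 0.143, 0.0363 and 0.0431% in the knock-in, against 0.198 and 0.0946% in the wild-type libraries. In knock-in replicate 3 the tile, with a 95% Wilson interval of 0.226 to 0.689%, lay above the mitochondrial level, with 0.0296 to 0.0627%. In wild-type replicate 2 the intervals, 0.121 to 1.04% for the tile and 0.0564 to 0.159% for the mitochondrial CpGs, overlapped.

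Further unmethylated tiles, not adjacent to each other, lay toward the end of the interval. At chr18:37965000-37965999, 7 shared CpGs had 0 methylated reads out of 519, 286 and 1058 in the knock-in, and none of 162 and 298 in the wild-type libraries. At chr18:37975000-37975999, 6 shared CpGs had 0 methylated reads out of 276, 230 and 502 in the knock-in, and none of 111 and 251 in the wild-type libraries. The smallest of these totals, 111 reads in wild-type replicate 1, allows a level of up to 2.70%. In the wider set, the tile at 37975000 held 12 CpGs. They had 6 methylated reads of 477 in knock-in replicate 1, 0 of 1092 in knock-in replicate 3 and 0 of 412 in wild-type replicate 2. Over CpGs shared by all 5 libraries, the 3 unmethylated tiles together had 0, 0 and 12 methylated reads of 2001, 1229 and 4598 in the knock-in, against 0 and 3 of 1031 and 1393 in the wild-type libraries. Limits and intervals cover counting error only, because amplified reads that carry no molecular identifier can stem from the same molecule.

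Some directly adjacent tiles differed widely. In knock-in replicate 3, 48 pairs of directly adjacent tiles had at least 3 CpGs each, and their levels differed by a median of 21.8 points and by 30 or more in 15 pairs. The widest step lay between the tile at 37424000, at 9.38% over 11 CpGs, and that at 37425000, at 80.9% over 13 CpGs. The tile at 37821000 was at 27.9% over 17 CpGs and its neighbour at 37822000 at 94.4% over 5 CpGs. The step from 37249000 to 37250000 was seen in each of the 3 libraries: the first tile was at 6.11 and 4.95% in knock-in replicates 1 and 3 and at 2.73% in wild-type replicate 2, and the second at 65.4 and 37.2% in the knock-in libraries, against 40.2% in the wild-type library. Tiles outside the 5 CpG-dense and the 11 tested ones were chosen for mention after their values were seen.

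Nearby CpGs resembled each other more than distant ones. In knock-in replicate 3 the median absolute difference in level was 7.57 points between positions 2 to 100 bases apart, 10.99 points from there to 1000 bases, 33.7 points from there to 10000 bases and 42.3 points beyond 100000 bases. Positions within a fragment share reads, which bears on the shortest distances. Both strands of a CpG, which are read from separate DNA strands, could be compared at 117 CpGs, where they differed by a median of 8.00 points. At the 48 of these with a mean of 20 to 80% the strands differed by a median of 23.0 points.

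The spread of intermediate CpGs over libraries was similar in size within and outside the interval. At the 30 shared CpGs of the interval with a mean level of 20 to 80%, the SD over the 5 libraries had a median of 22.0 points, and at the 13260 such CpGs of the other autosomes 22.1 points. Choosing CpGs by their mean takes in those at which libraries disagree, so these values are a description. Over the 97 shared CpGs, levels of pairs of libraries correlated with Pearson's r of 0.7998 to 0.935 within the interval and 0.931 to 0.987 elsewhere. Within the interval, the highest value joined knock-in replicates 1 and 3, and the lowest joined knock-in replicate 2 and wild-type replicate 1. These correlations are descriptions across CpGs, which are not independent and differ in depth between libraries.

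Knock-in and wild-type libraries were then compared, as a test of whether methylation of the locus differed between the genotypes. The mean level over the 97 CpGs came to 38.4, 29.3 and 33.0% in knock-in replicates 1, 2 and 3 and 36.7 and 32.7% in wild-type replicates 1 and 2. The groups overlapped, with the highest and the lowest value both among the knock-in libraries. The means were 33.6 ± 4.57% (SD, n = 3) for knock-in, against 34.7 ± 2.81% (SD, n = 2) for wild-type libraries, a difference of -1.15 points (exact 2-sided permutation p = 0.9). With 3 against 2 libraries the smallest possible p is 0.1, so no single comparison of this kind can pass 0.05. Both groups averaged 26.8% of CpGs at 20 to 80%, with SDs of 9.16 points in knock-in, against 1.46 points in wild-type libraries (exact permutation p = 1). The mean level was above that of the other autosomal CpGs in all 5 libraries, by 13.3 ± 3.72 points (exact sign-flip p = 0.0625).

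The windows with at least 4 shared CpGs gave differences of either sign. Window 1, with 6 CpGs, averaged 93.4 ± 5.61% in knock-in, against 84.3 ± 9.29% in wild-type libraries (exact permutation p = 0.3). This difference of 9.10 points was 1.40 points without knock-in replicate 2, where further CpGs entered, and 15.7 points without wild-type replicate 1. Window 8, with 32 CpGs, averaged 9.46 ± 3.45% in knock-in, against 11.8 ± 1.71% in wild-type libraries (exact permutation p = 0.6). Of its CpGs, 24 lay in the unmethylated tile at 37803000, so this mean says little of the rest of the window. In the wider set window 8 averaged 37.3 and 35.8% in knock-in replicates 1 and 3, against 32.7% in wild-type replicate 2. Window 9, with 39 CpGs, averaged 22.6 ± 8.17% in knock-in, against 24.8 ± 2.82% in wild-type libraries (exact permutation p = 0.9). The tiles at 37965000 and 37975000, at 0% in each library, held 7 and 6 of its CpGs. In the wider set window 9 averaged 36.8 and 30.8% in knock-in replicates 1 and 3, against 30.7% in wild-type replicate 2. Windows 4, 6 and 7 differed by 1.698, -1.81 and -7.51 points, knock-in minus wild-type, with exact permutation p of 1, 0.8 and 0.4. Window 7 differed by -2.36 points without wild-type replicate 1 and by -12.7 points without wild-type replicate 2. Adjusted over the 11 comparisons of means, classes, windows and shares, every p was 1.

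By tile, no difference passed the test. The quasi-likelihood test of edgeR, fitted over 24319 autosomal tiles, called 0 of the 11 tiles of the interval at an adjusted p under 0.05, and percent called over all tiles was 0 in either direction. At an unadjusted p under 0.05 it had 0 of the 11 tiles, while 0.843% of all tiles were higher and 0.748% lower in knock-in libraries. Over 280635 CpGs the same test called 0 of the 97 CpGs of the interval, against 0.000356% higher and 0% lower among all. At an unadjusted p under 0.05 it had 0 of the 97, while 0.201% of all CpGs were higher and 0.0652% lower in knock-in libraries. Limma on arcsine levels had 3 of the 97 higher and 1 lower at that threshold, against 1.38% higher and 0.481% lower among all CpGs, and called 0 after adjustment. On tiles, limma had 0 of 11 at either threshold, against 2.57% higher and 1.09% lower among all tiles at an unadjusted p under 0.05.

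The tile of smallest p was at chr18:37107000-37107999, the tested tile nearest the start of the interval. It stood at 95.3, 86.8 and 79.1% in knock-in replicates 1, 2 and 3 and 81.7 and 69.4% in wild-type replicates 1 and 2. The groups overlapped, since knock-in replicate 3 lay below wild-type replicate 1. The means were 87.1 ± 8.14% (SD, n = 3) for knock-in, against 75.5 ± 8.66% (SD, n = 2) for wild-type libraries, a difference of 11.5 points (adjusted p = 1 by edgeR). It was 5.42 points without wild-type replicate 2, 7.41 points without knock-in replicate 1 and 17.7 points without wild-type replicate 1.

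Among the 11 tested tiles, the tile at chr18:37916000-37916999 had the widest difference. It was at 56.3, 13.5 and 53.3% in knock-in replicates 1, 2 and 3 and at 59.7 and 56.5% in wild-type replicates 1 and 2. All knock-in values lay below both wild-type values, but the nearest libraries were within 1 point of each other, and knock-in replicate 2, with 104 reads, stood far below the rest. The means were 41.0 ± 23.9% (SD, n = 3) for knock-in, against 58.1 ± 2.31% (SD, n = 2) for wild-type libraries, a difference of -17.1 points (adjusted p = 1 by edgeR). Without knock-in replicate 2 the difference was -3.28 points. Wider differences lay in tiles with 2 shared CpGs, too few for the main test. At chr18:37828000-37828999 all knock-in libraries were lower, by 24.8 points on average (unadjusted exact permutation p = 0.1). Wild-type replicates 1 and 2 had 31 and 32 reads there. With tiles of at least 1 shared CpG, edgeR gave this tile an unadjusted p of 0.434. At chr18:38002000-38002999 knock-in libraries were higher by 18.5 points on average, and the groups overlapped. Wild-type replicate 1 was lowest there, at 29.2% over 24 reads, while wild-type replicate 2 was at 86.2%. In the wider set, over 4 CpGs, the direction was the opposite, with 79.1 and 59.5% in knock-in replicates 1 and 3, against 82.2% in wild-type replicate 2.

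Of the 11 tested tiles, only that at 37916000 had all knock-in libraries lower and the group means at least 10 points apart. This pattern was found in 0.621% of all autosomal tiles. The opposite pattern was met by 0 of 11 tiles, against 2.37% of all. These shares were not matched for level, and 36.4% of the 11 tiles averaged 20 to 80%, against 6.36% of the others. At any distance, 2 of 11 tiles had all knock-in libraries lower, against 3.61% of all, and 0 of 11 had all higher, against 8.98%. The other of these 2 tiles was at chr18:37880000-37880999, with 12.6, 0 and 12.8% in knock-in, against 17.3 and 15.5% in wild-type libraries. Its knock-in value of 0 came from replicate 2, over 47 reads, and its adjusted p was 1 by edgeR.

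**Figure D4:**
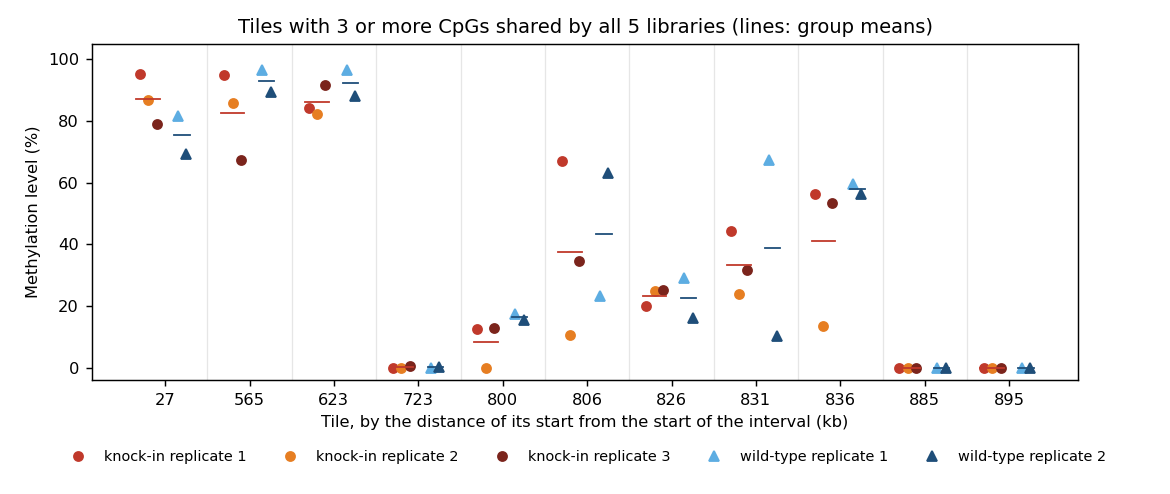
Methylation level in the 11 tested tiles of the protocadherin interval, in order along the interval, for 3 knock-in and 2 wild-type libraries, 1 point each. The groups overlap in most tiles, 3 tiles lie at or near 0% in each library, and the low knock-in point of the tile that starts at 37916000 is 13.5%.

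Partly methylated tiles had the widest spread within a genotype. The tile at chr18:37911000-37911999 was at 44.5, 24.0 and 31.5% in knock-in libraries, against 67.3 and 10.4% in wild-type libraries, so that the wild-type values enclosed the knock-in ones. The tile at chr18:37886000-37886999 was at 67.0, 10.8 and 34.6% in knock-in libraries, against 23.3 and 63.1% in wild-type libraries. The differences were -5.50 and -5.75 points, each with an adjusted p of 1 by edgeR. The tile at chr18:37906000-37906999 was steadier, at 20.0, 25.0 and 25.2% in knock-in libraries, against 28.99 and 16.2% in wild-type libraries (adjusted p = 1 by edgeR).

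The remaining methylated tiles also overlapped between the genotypes. At chr18:37645000-37645999 the levels were 95.1, 86.0 and 67.3% in knock-in libraries, against 96.7 and 89.6% in wild-type libraries (difference -10.4 points, adjusted p = 1 by edgeR). At chr18:37703000-37703999 they were 84.3, 82.2 and 91.7% in knock-in libraries, against 96.6 and 88.0% in wild-type libraries (difference -6.24 points, adjusted p = 1 by edgeR). The last difference was -1.92 points without wild-type replicate 1 and -10.6 points without wild-type replicate 2. Without knock-in replicate 2, where further CpGs entered, it was -2.53 points. Knock-in replicate 3 was the lowest library at the first of these tiles and stood between the wild-type libraries at the other.

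Single CpGs gave wider differences on fewer reads. The CpG of smallest p, at chr18:37140007 on the forward strand, was at 100% in each knock-in library and at 100 and 66.7% in wild-type replicates 1 and 2, the last over 12 reads (adjusted p = 1 by edgeR). The next, at chr18:37635207 on the reverse strand, was at 100, 100 and 85.7% in knock-in libraries, against 72.2 and 53.3% in wild-type libraries, which had 18 and 15 reads there. All its knock-in values lay above both wild-type values (adjusted p = 1 by edgeR). The CpG at chr18:37828654 on the reverse strand was at 15.9, 44.4 and 40.5% in knock-in libraries, against 100 and 68.8% in wild-type libraries over 16 reads each. It was lower in 3 of 3 knock-in libraries, by 50.8 points on average (adjusted p = 1 by edgeR). This CpG is 1 of the 2 shared CpGs of the tile at 37828000, so that tile and this CpG are not separate differences.

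In the wider set, both knock-in libraries lay above wild-type replicate 2 in 22 of the 54 tiles and below it in 14. These are 40.7 and 25.9% of the tiles of the interval, against 35.4% above and 22.3% below among all autosomal tiles of the set. The shares were not matched for level, and 70.4% of the tiles of the interval averaged 20 to 80%, against 11.6% of the others. The 28 tiles at 20 to 80% in each of the 3 libraries ranged over a median of 13.3 points between libraries. The widest range was at chr18:37834000-37834999, with 75.0 and 51.7% in knock-in replicates 1 and 3 and 31.3% in wild-type replicate 2. The narrowest of the intermediate tiles, at chr18:37651000-37651999, was at 56.9 and 58.5% in the knock-in libraries, against 55.6% in the wild-type library. With a single wild-type library this set allows no test of the genotypes that could pass 0.05.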

How the data were processed

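DNA methylation was measured by enhanced reduced representation bisulfite sequencing in 3 knock-in and 2 wild-type libraries. CASAVA 1.7, Bismark and the mm9 build are named per the submitters' processing notes. The deposited tables give, per the file headers, coverage as a read count for each strand of a CpG, with the percent of reads read as C and as T, both made by the authors. No listed position had under 10 reads. Methylated and unmethylated reads were coverage times these percentages, whole numbers at 100% of positions within rounding. Libraries listed 447270 to 2028186 positions at a median coverage of 16 to 33 reads.

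The level was methylated reads over methylated plus unmethylated reads, which together made up at least 90.06% of coverage at each listed position. Tiles of 1 kb needed 3 CpGs shared by all 5 libraries, and density classes counted positions listed in any library. The tests were edgeR 4.0.16 (quasi-likelihood on methylated and unmethylated counts, Benjamini-Hochberg adjustment over all autosomes, 3 residual degrees of freedom), limma 3.58.1 on arcsine levels, and exact permutation and sign-flip tests over libraries, in R 4.3.3 and Python 3.11.15. Scripts were tested on simulated data. Limits for 0 methylated reads are 3 reads over the total.

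Alternatives were 20 reads per CpG, read weighting, 5 CpGs per tile, shifted tiles, other separations and leaving out each library. Shared positions were chosen anew whenever a library was left out, so such a change can come from other CpGs as well as from the library. Tiles named by rule were the tested ones, those separated between groups and the CpG-dense ones, and named CpGs were the 3 of smallest p. Other tiles were named after their values were seen. The members, lists and rules were chosen with earlier results of these data known. No sequence is printed, and replicate numbers only name libraries in accession order.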

Additional observations from a re-analysis of the deposited data

How the results depend on the processing

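No paired analysis was possible because the labels give the genotypes no shared replicate numbers. Across all alternatives run, edgeR and limma called 0 tiles and 0 CpGs of the interval, with smallest unadjusted p of 0.01423 for a CpG (limma). The excess of CpGs at 20 to 80% kept its sign, at 3.49 points at 20 reads, 18.8 to 26.6 with each library left out, 28.3 for bounds of 10 and 90%, 13.4 for 30 and 70%, 19.9 when thinned, 22.7 over each library's own positions, and 31.7 and 33.8 in 3 libraries at 10 and 20 reads. Most differences between genotypes, none past its threshold, changed sign under some alternative, and the cause was not tested. Window 7 and tiles 37107000, 37703000 and 37916000 kept theirs, at -12.7 to -2.36, 5.42 to 17.7, -10.6 to -1.92 and -24.7 to -3.28 points with each library left out.

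Knock-in minus wild-type, the mean of the interval was 1.97 points when read-weighted, 7.19 over own positions, 2.67 in 3 libraries and -3.39 to 1.01 with each library left out. In 3 libraries, tiles of 10 to 29 positions differed by 4.00, windows 1, 6, 8 and 9 by -1.24, 1.35, 3.79 and 3.05, and tiles 37645000, 37880000 and 37911000 by 1.51, 0.934 and 11.4 points. Window 8 differed by 0.267 when read-weighted. With each library left out, the density classes, from sparse to dense, ranged from -9.00 to 5.72, -8.74 to 3.86 and -0.725 to 0.201, and windows 4, 6, 8 and 9 from -2.09 to 8.22, -8.80 to 3.29, -3.40 to 1.14 and -5.24 to 0.949. Tiles 37645000, 37803000, 37886000, 37906000 and 37911000 ranged from -16.5 to 1.08, -0.198 to 0.132, -25.6 to 14.1, -5.58 to 6.20 and -33.9 to 8.86.

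Interval minus other tiles of 10 to 29 positions was -31.6 at 20 reads, -12.6 when read-weighted, -34.4 with 5 CpGs per tile, -1.29 in 3 libraries and -5.49 to 4.59 with each library left out. At 20 reads the interval kept only the tile at 37965000 in this class, and with 5 CpGs only those at 37965000 and 37975000, all at 0%. For 30 or more positions the value was 10.01 in 3 libraries. Separated tiles with knock-in lower numbered 2 of 11 at any distance and 0 of 11 at 20 points, and 0 of 3 at 20 reads or with 5 CpGs. With a library left out they numbered 0 to 4, being 3 of 12 without knock-in replicate 1, 0 of 20 without knock-in replicate 2, 2 of 11 without knock-in replicate 3, 2 of 27 without wild-type replicate 1 and 4 of 12 without wild-type replicate 2, against 1.46, 1.12, 1.30, 1.51 and 2.65% of all autosomal tiles. Those higher numbered 0 to 5, being 5 of 27 when wild-type replicate 1 was left out (4.63% of all) and 1 of 11 when knock-in replicate 3 was (4.24% of all). The 97 shared positions are set by the depth of wild-type replicate 1, and differences under the spread of these 5 libraries were not detectable.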
